A study of Mus musculus with 10 samples.

Results

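The nuclei described here are those of parvalbumin interneurons, chosen by their own counts from single-nucleus RNA of mouse hippocampus and cortex. A nucleus was taken when the unique molecular identifiers (UMIs, 1 per captured RNA molecule) of Gad1, Gad2 and Slc32a1 summed to 2 or more, Pvalb had at least 1 UMI, Sst had at most 1, and Vip, Slc17a6 and Slc17a7 had none. Gad1 and Gad2 encode the enzymes that make GABA, Slc32a1 loads it into vesicles, Sst and Vip mark other interneuron classes, and Slc17a6 and Slc17a7 are the vesicular glutamate transporters of excitatory neurons. This gate found 60 of 11624 nuclei, 46 in cortex and 14 in hippocampus. The 8 gate genes chose the nuclei, so their values are given as a description and are left out of every test.

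Parvalbumin interneurons are fast-spiking inhibitory cells of cortex and hippocampus that contact the soma, the proximal dendrites or the axon initial segment of principal cells. They arise in the medial ganglionic eminence under Lhx6 and Sox6, as do somatostatin cells, whereas Vip and Adarb2 cells come from the caudal ganglionic eminence. Their brief spikes rest on potassium channels of the Kv3 family, which Kcnc1 and Kcnc2 encode, their terminals use the calcium sensor Syt2, and Erbb4 receives the neuregulin signals that shape their synapses.

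The nuclei came from archived frozen brain tissue of C57BL/6 mice, with no treatment, transgene or allele named. They were profiled by DroNc-seq, in which each nucleus shares a droplet with a barcoded bead. Hippocampus and cortex, the latter dissected as prefrontal cortex, had 5 libraries each, and the series design names 4 mice. Library titles carry the numbers 0 to 3, number 0 with libraries a and b, which were summed, so each region had 4 units. The labels do not tie numbers to mice, so p-values reflect spread among units that may be technical replicates. Neither age nor sex is stated in the labels.

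Members per unit were 16, 12, 9 and 9 in cortex (numbers 0 to 3 in this order, here and below) and 5, 3, 3 and 3 in hippocampus. They held 161575 UMIs, with a median of 1975.5 UMIs and 1354.5 genes per nucleus (range 737 to 12760 UMIs). The other 766 nuclei with 2 or more UMIs of the 3 GABA genes, called other inhibitory nuclei, had a median of 1969.5 UMIs. Depth per library was 1443244 to 2600788 UMIs. No member barcode occurred in more than one library, and library pairs shared at most 3 barcodes.

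The gate was met narrowly by most members. Pvalb had exactly 1 UMI in 42 members and 2 to 6 UMIs in 18, for 93 UMIs in all. Gad1 was seen in 51 members, Gad2 in 43 and Slc32a1 in 25, and the 3 genes summed to exactly 2 UMIs in 15 members, 3 in 15 and 4 or more in 30. Sst had its 1 allowed UMI in 9 members. Just outside, 29 nuclei met every other condition with 1 GABA gene UMI, 81 with none, and 421 with no Pvalb UMI. Those 421 Pvalb-free nuclei differ from members in the gate by the Pvalb condition alone and serve below as the closest comparison. They were not matched in depth. Their median was 1532 UMIs and 1046 genes, against 1975.5 UMIs and 1354.5 genes in members. Whether some of them are parvalbumin cells whose Pvalb RNA was not captured was not tested. Another 43 inhibitory nuclei had Pvalb but were turned away, 31 for Slc17a6 or Slc17a7, 12 for Sst and 9 for Vip. Pvalb also occurred in 2.15% of 1069 nuclei with 2 or more Slc17a6 or Slc17a7 UMIs and no GABA gene UMI (exact 95% interval 1.37% to 3.21%, median 2578 UMIs), called excitatory below, and in 5.61% of the other inhibitory nuclei.

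The label was checked against genes the gate did not use. Kcnc1 was present in 57 of 60 members, Scn1a, the sodium channel of fast-spiking cells, in 53, Kcnc2 in 29, Erbb4 in 24, Syt2 in 21 and Cntnap4, a neurexin-family adhesion protein of interneurons, in 21. Each member had at least 1 UMI of Kcnc1, Kcnc2, Erbb4 or Syt2. This joint count was not made in other classes, and Kcnc1 was also detected in part of each of them, as given below. Lhx6 was seen in 7 members and Sox6 in 5, 12 with either, so the lineage factors were mostly below detection at this depth. Adarb2 of the caudal lineage was seen in 4 members and Npy in 9. Of 13 genes listed for chandelier cells, the class that contacts the axon initial segment, 6 were at 0 in members, Vipr2 and Nkx2-1 among them, and Pthlh had 1 UMI. The rest of that list had UMIs in members. Dlgap2, for one, had a mean of 212 CPM over 5 units, beside 162 in Pvalb-free nuclei. Of 17 markers of thalamic reticular and other diencephalic or midbrain GABA neurons, 9 were at 0, Gata3, Otx2 and Sox14 among them, and the list summed to 22 UMIs. The rest of this list also had UMIs, Meis2 at a mean of 31.7 CPM over 5 units, beside 108 in other inhibitory nuclei. At this depth a value of 0 does not show that a gene is absent.

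Some cortical members also carried RNA of glia and vessels. A set of 8 members, all in cortex (4 in library 0b, 2 in unit 2 and 2 in unit 3), held 10 or more UMIs of astrocyte, oligodendrocyte, precursor, microglial and vascular markers. The highest held 290, of which 220 were vascular, and had 12760 UMIs, the most of any member. The 4 in library 0b had 12760, 9848, 6715 and 2613 UMIs, out of 67573 in all members of cortical unit 0. The 52 members outside this set held 114621 of the 161575 member UMIs, so the 8 weigh heavily in the summed counts. Vascular markers summed to 326 UMIs in cortical members (11 of 12 genes) and to 2 in hippocampal ones (2 genes), and astrocyte markers to 176 and 7 (9 and 3 of 11 genes). By unit, the list of Vascular and meningeal markers summed to 243, 0, 41 and 42 UMIs in cortex and 2, 0, 0 and 0 in hippocampus. In the 52 members under 10 such UMIs, 7 of the 12 vascular genes were at 0. Where genes of these lists could still be tested without those nuclei, that value is given beside the result.

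Parvalbumin nuclei made up a larger share of the inhibitory nuclei of cortex than of hippocampus. Of all nuclei with 2 or more GABA gene UMIs they were 10.7%, 10.2%, 7.56% and 7.14% in the 4 cortical units, which held 150, 118, 119 and 126 such nuclei. In the hippocampal units they were 5.75%, 4.48%, 4.48% and 3.26% of 87, 67, 67 and 92. Every cortical unit lay above every hippocampal one. The means were 8.89% ± 1.79 (SD, n = 4) and 4.49% ± 1.02 (SD, n = 4), a difference of -4.39 percentage points, hippocampus minus cortex (two-sided exact permutation p = 0.0286, the smallest that 70 assignments can give, and 0.0286 adjusted over both shares). Of all nuclei, members were 1.17%, 0.738%, 0.653% and 0.566% in cortex and 0.211%, 0.284%, 0.282% and 0.257% in hippocampus, a difference of -0.522 points (two-sided exact permutation p = 0.0286). Both differences rested on members with a single Pvalb UMI. With 2 or more Pvalb UMIs asked for, 11 cortical and 7 hippocampal members remained, and the difference among inhibitory nuclei was 0.21 points in the other direction (means 2.03% and 2.24%, two-sided exact permutation p = 0.857). Among all nuclei it was -0.0524 points (two-sided exact permutation p = 0.686). Without hippocampal unit 3 the difference among inhibitory nuclei was -3.98 points (two-sided exact permutation p = 0.0571), and with every nucleus thinned to 1000 UMIs, which left 14 cortical and 4 hippocampal members, it was -4.46 points (p = 0.0857, same test). Median depth was 1932.5 UMIs in cortical and 2187 in hippocampal members, and 1968 and 1971 in the other inhibitory nuclei.

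**Figure D1:**
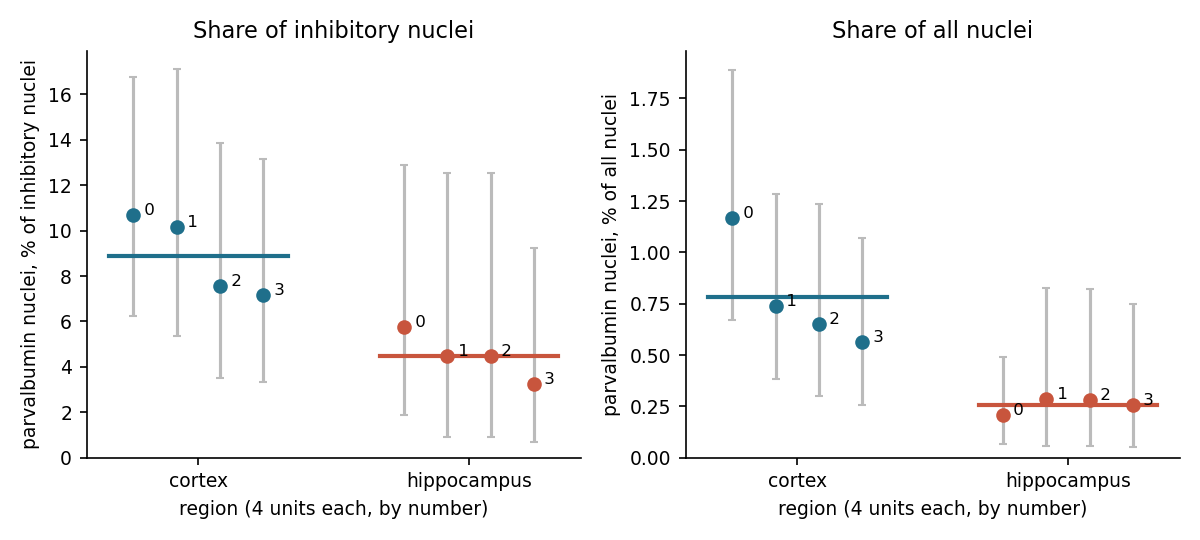
Parvalbumin nuclei as a percentage of inhibitory nuclei (left) and of all nuclei (right), on axes from 0, for the 4 units of each region. Points are units, their error bars are exact 95% intervals over nuclei, and horizontal lines mark the means. All 4 cortical points lie above all 4 hippocampal points in both panels.

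Kcnc1 was higher in parvalbumin nuclei than in each class compared. Its level in CPM (UMIs of a gene scaled to 1000000 UMIs of the summed nuclei) was 1169, 2114, 951 and 699 in the cortical units of members and 1901, 1433, 1418 and 820 in the hippocampal ones. In Pvalb-free nuclei it was 602, 784, 640.5 and 489 in cortex and 623, 439, 644 and 441 in hippocampus. Members were higher within each of the 8 units, though across units the ranges met, cortical unit 3 of members lying below cortical unit 1 of the Pvalb-free nuclei. Over all nuclei pooled, Kcnc1 stood at 1263 CPM in members (204 UMIs, exact interval 1095 to 1448) and at 574 in Pvalb-free nuclei, 447 in Sst nuclei, 475 in Vip or Adarb2 nuclei and 183 in excitatory nuclei. Kcnc1 lies on chromosome 7 from 46396497 to 46438704 in mm10.

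Tests used the 5 units with at least 5 nuclei of each class (cortex 0 to 3 and hippocampus 0), with classes compared within units. Against other inhibitory nuclei Kcnc1 rose by a log2 fold change of 1.47 ± 0.20 (SE; edgeR quasi-likelihood test, adjusted p = 1.92e-09), from 414 ± 68.1 to 1367 ± 613 CPM (SD, n = 5). With glutamate transporter nuclei taken out of the comparison (567 left) the fold was 1.15 ± 0.20 (edgeR adjusted p = 0.00137), and without cortical unit 1 it was 1.01 (0.0854). Against the 421 Pvalb-free nuclei it was 1.00 ± 0.20 (edgeR adjusted p = 0.0203), higher in 5 of 5 units. That last call held in 4 of 11 alternatives, with adjusted p from 0.000579 to 0.546 and log2 folds from 0.57 to 1.09. It was lost without cortical unit 1 (edgeR adjusted p = 0.237), cortical unit 2 (0.113) or hippocampal unit 0 (0.0800), and with DESeq2 (0.317). The call against other inhibitory nuclei held in 14 of 14, at folds from 1.12 to 1.60.

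**Figure D2:**
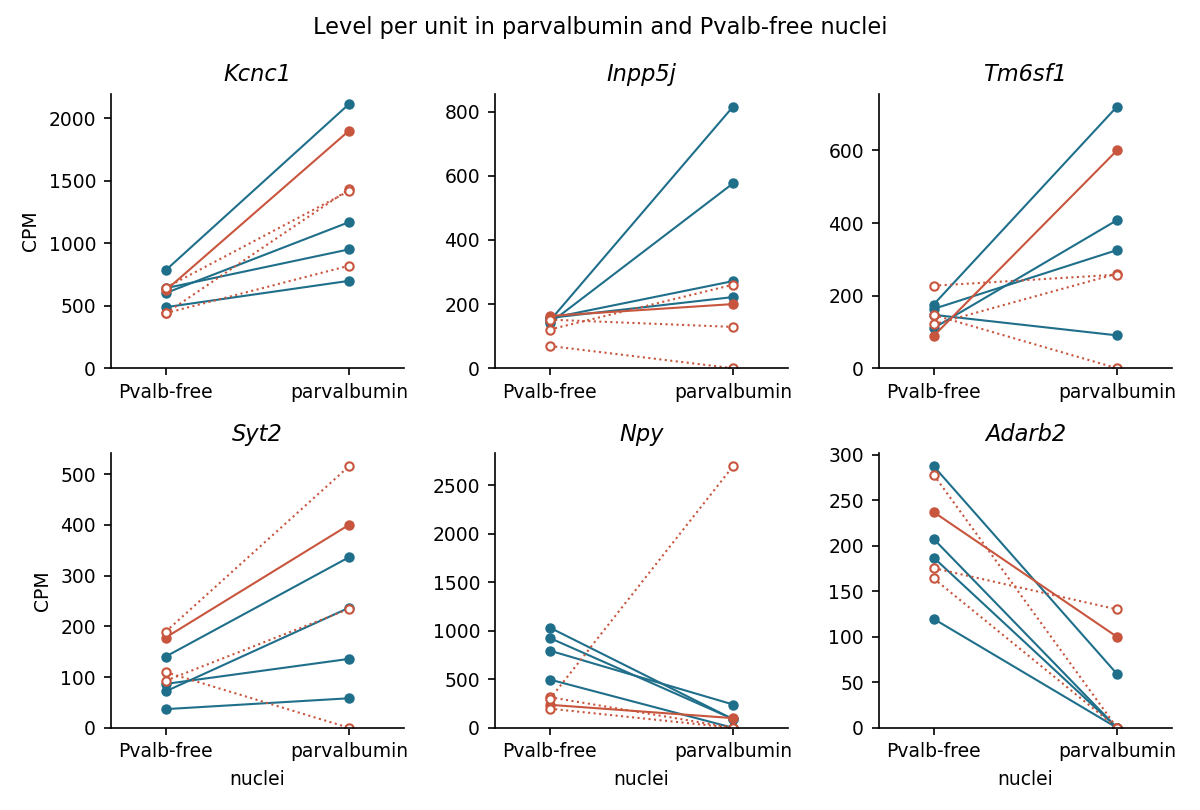
Levels of 6 genes in CPM (vertical axes from 0) in Pvalb-free and parvalbumin nuclei of the same gate, each line joining both classes of 1 unit (blue in cortex, red in hippocampus, solid for the 5 tested units, dotted for the others). Kcnc1 rises along all 8 lines, while Npy falls along 7 of them and rises only in hippocampal unit 3.

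Against all other inhibitory nuclei, 47 of 4381 genes passed an adjusted p under 0.05 in edgeR (1.07%), 13 higher in members (0.297%) and 34 lower (0.776%). The count was 19 without cortical unit 1, 22 without cortical unit 0, and 13 with DESeq2. With nuclei of 10 or more glial or vascular marker UMIs removed from both classes it was 27 of 1807, and 22 of the 36 original calls still tested were kept. The gate removes glutamate transporter, Vip and Sst nuclei from members only, so this contrast also holds the difference the gate itself makes. When the comparison was limited to transporter-free nuclei, which still include Vip and Sst nuclei, 6 of 1963 genes passed (0.306%, edgeR), 2 higher (0.102%) and 4 lower (0.204%). Against Pvalb-free nuclei 3 of 1267 passed (0.237%, edgeR). Kcnc1 was higher (0.0789%), and Npy was among the 2 lower (0.158%).

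Syt2, the fast calcium sensor of parvalbumin terminals (chromosome 1, 134646677 to 134762593), was at 237, 336, 136 and 58.3 CPM in cortical members and 400.2, 0, 516 and 234 in hippocampal ones. Other inhibitory nuclei were at 46.4, 67.7, 33.4 and 44.4 in cortex and 58.6, 80.6, 171 and 64.7 in hippocampus. Members were higher in 7 of 8 units, the exception being hippocampal unit 1 with 3 nuclei and no Syt2 UMI. The log2 fold over the 5 tested units was 2.07 ± 0.42 (SE; edgeR adjusted p = 0.000355), and 1.92 without cortical unit 0 (0.074). The call was lost in 2 of the 11 alternatives in which the gene was tested, with an adjusted p of up to 0.298 in edgeR or DESeq2. Syt2 was not among the genes tested against transporter-free or Pvalb-free nuclei.

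Inpp5j, an inositol polyphosphate phosphatase (chromosome 11, 3494375 to 3504821), was at 222, 577, 272 and 816 CPM in cortical members and 200.1, 261, 129 and 0 in hippocampal ones. It rose by 1.62 ± 0.32 on the log2 scale against other inhibitory nuclei (edgeR adjusted p = 0.000287) and by 1.62 ± 0.33 against transporter-free ones (0.00963). Against Pvalb-free nuclei, at 157, 140.4, 156 and 147 in cortex and 163 in hippocampal unit 0, the difference was 1.29 ± 0.33 and missed the threshold (edgeR adjusted p = 0.0709). Members were higher in 6 of 8 units in that comparison. Without cortical unit 1 the first call was lost (edgeR adjusted p = 0.0588), as was the one on transporter-free nuclei without cortical unit 1 (0.191) or 3 (0.12).

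Tm6sf1, a transmembrane protein gene (chromosome 7, 81859001 to 81884434), rose by 1.44 ± 0.31 on the log2 scale against other inhibitory nuclei (edgeR adjusted p = 0.00139), with 326, 721, 90.6 and 408 CPM in cortical members and 600.3, 261, 258 and 0 in hippocampal ones. It was lower in members than in other inhibitory nuclei in cortical unit 2, where that class was at 110, and in hippocampal unit 3. Without cortical unit 1 the Tm6sf1 call was lost (edgeR adjusted p = 0.212). Tm6sf1 also missed the threshold in edgeR against transporter-free and against Pvalb-free nuclei. Peg3, an imprinted zinc finger gene, was abundant and rose modestly, by 0.63 ± 0.16 (edgeR adjusted p = 0.0164). Its level was 2013, 2979, 2084 and 2565 in cortical members and 1701 in hippocampal unit 0, each above the 1535, 1300, 1245, 1094 and 1387 of other inhibitory nuclei in the same units. Against Pvalb-free nuclei Peg3 differed by 0.66 ± 0.17 without passing (edgeR adjusted p = 0.0685), and its call against other inhibitory nuclei was lost without cortical unit 1 (0.384), 2 (0.0944) or 3 (0.106).

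Another 4 genes, of no shared list, were higher against other inhibitory nuclei in each of the 5 tested units. Azi1 had a log2 fold of 1.65 ± 0.48 (edgeR adjusted p = 0.0487), the fibrillar collagen gene Col11a1 one of 1.41 ± 0.38 (0.0207), the dystrophin relative Utrn one of 1.34 ± 0.35 (0.0206) and Tmem44 one of 1.06 ± 0.30 (0.0465). Their member UMIs were few, 24 for Azi1, 48 for Col11a1, 46 for Utrn and 58 for Tmem44. Col11a1, Utrn and Tmem44 missed the threshold against transporter-free nuclei (edgeR adjusted p = 0.243, 0.118 and 0.229). They also missed it against Pvalb-free nuclei (edgeR adjusted p = 0.107, 0.145 and 0.377), and Azi1 was tested in neither comparison. Of the Utrn UMIs, 26 lay in the 8 members with glial or vascular RNA. Rgs5, a pericyte gene, and Ly6c1, an endothelial surface antigen, also passed (0.98 ± 0.25 and 1.48 ± 0.30), and 157 of 159 and 72 of 78 of their UMIs lay in those 8 members. With nuclei of such RNA removed from both classes, Rgs5, Ly6c1 and Utrn were not among the 1807 genes tested. Slc1a2, an astrocyte glutamate transporter, was lower in members (-1.41 ± 0.27, edgeR adjusted p = 0.000277). It was at -2.49 ± 0.60 with those nuclei removed (0.0162), and at -0.89 without cortical unit 3 (edgeR adjusted p = 0.115). Without cortical unit 0 the folds were 0.31 for Rgs5 and 0.80 for Ly6c1 (edgeR adjusted p = 0.925 and 0.779). Without that unit Col11a1 and Tmem44 also missed the threshold (0.25 and 0.0968), as they did without cortical unit 1 (0.056 and 0.142), cortical unit 2 (0.119 and 0.592) or hippocampal unit 0 (0.0568 and 0.0727). Azi1 missed it without any 1 of the 5 units (edgeR adjusted p from 0.0625 to 0.4), and Utrn without cortical unit 0 (0.228) or 2 (0.231).

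Npy was the clearest gene on the lower side. This neuropeptide, made by many Sst and neurogliaform cells (chromosome 6, 49822710 to 49829507), was at 88.8, 240.3, 90.6 and 0 CPM in cortical members and 100.05, 0, 0 and 2696 in hippocampal ones. Pvalb-free nuclei were at 1033, 796, 926 and 498 in cortex and 237, 198, 316 and 294 in hippocampus. Members were lower in 7 of 8 units, and of the 24 hippocampal member UMIs, 23 came from 1 nucleus of 4588 UMIs in unit 3. Over the 5 tested units Npy was at 103.9 ± 86.3 in members and 698 ± 326 in Pvalb-free nuclei (SD, n = 5), a log2 fold change of -2.98 ± 0.36 (edgeR adjusted p = 7.09e-06). The call held in 10 of 11 alternatives. With units of 3 nuclei or more, which brings in the hippocampal unit 3 nucleus, it was -1.44 (edgeR adjusted p = 0.0978). The gate excludes nuclei of 2 or more Sst UMIs from both classes here.

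Adarb2, an RNA editing family member of the caudal lineage, had 6 UMIs in all members and was at 0 in 5 of 8 units. It was at 288, 187, 208 and 119.8 CPM in the Pvalb-free nuclei of cortex. Its log2 fold change was -2.41 ± 0.58 against other inhibitory nuclei (edgeR adjusted p = 0.00886) and -3.04 ± 0.52 against transporter-free ones (0.00137). Both of these classes hold Vip nuclei, which the gate bars from members, so part of the difference may be made by the gate. The former call was lost without cortical unit 0 (edgeR adjusted p = 0.074), 1 (0.0748) or 2 (0.0577). Adarb2 was not among the 1267 genes tested against Pvalb-free nuclei.

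The list of Oligodendrocyte markers summed to 489 CPM in members and 1267 in Pvalb-free nuclei, and its part in the gene differences was not tested.

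Some genes were lower against other inhibitory nuclei, a class that holds nuclei with glutamate transporter UMIs. Of 9 excitatory neuron markers tested there, 1 was lower (Camk2a) and none higher, where 0.776% of all genes tested were called lower. Arpp21 changed by -1.55 ± 0.25 (log2; edgeR adjusted p = 4.57e-07), the calcium channel auxiliary subunit Cacna2d1 by -1.93 ± 0.40 (0.000616), Plk2, an activity-induced kinase, by -1.91 ± 0.44, and the kinase Camk2a by -1.02 ± 0.25 (0.00923). The R-type calcium channel gene Cacna1e and the protease gene Bmp1 each had 1 UMI in the members of the 5 tested units, 14.8 CPM in cortical unit 0 and 0 elsewhere. Against Pvalb-free nuclei Arpp21 (-1.0 ± 0.26, edgeR adjusted p = 0.0709), Cacna2d1 (-1.71 ± 0.41, 0.0629) and Plk2 (-1.87 ± 0.44, 0.0628) missed the threshold. Camk2a missed it there as well (-0.64 ± 0.25, edgeR adjusted p = 0.333). Without cortical unit 3, Arpp21 and Cacna2d1 passed there (edgeR adjusted p = 0.0341 and 0.0479). Without cortical unit 0, the calls against other inhibitory nuclei were lost for Cacna2d1 (edgeR adjusted p = 0.103), Plk2 (0.0579), Camk2a (0.115), Bmp1 (0.154) and Cacna1e (0.126). Without cortical unit 1 they were lost for Plk2 (0.0771), Camk2a (0.0678) and Cacna1e (0.0653), and without hippocampal unit 0 for Camk2a (0.0568). Excitatory neuron markers summed to 1498 CPM in members and 1589 in Pvalb-free nuclei, with Fezf2, Prox1, C1ql2 and Slc17a8 at 0 in members.

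A list of 39 PV interneuron genes without Pvalb, 38 of them in the table, was summed and counted per nucleus. The list was chosen with earlier results of these data known, so its values are descriptions. Members had UMIs of 34 of the 38, 820 UMIs in all, or 5075 CPM against 2798 in Pvalb-free nuclei. By unit the sum was 5683, 5574, 3896 and 3497 in cortical members and 7004, 3908, 4899 and 4219 in hippocampal ones. A member had a median of 7 of these genes detected (range 1 to 18) and a Pvalb-free nucleus 3. Thinned to 1000 UMIs, which keeps 54 members and 316 Pvalb-free nuclei, the medians were 4 and 2, and 1 in Sst nuclei. The filter on low counts left 16 list genes in the test against other inhibitory nuclei, and it can pass a gene through the class where it is high. Of these 16, 2 passed (Kcnc1 and Syt2, both higher), where 0.297% of all genes tested were called higher, and the median log2 fold was 1.04, beside -0.126 over all 4381 genes. Against Pvalb-free nuclei 7 list genes were tested, 1 was higher, where 0.0789% of all genes were, and the median was 0.47, beside -0.017 over all 1267.

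**Figure D3:**
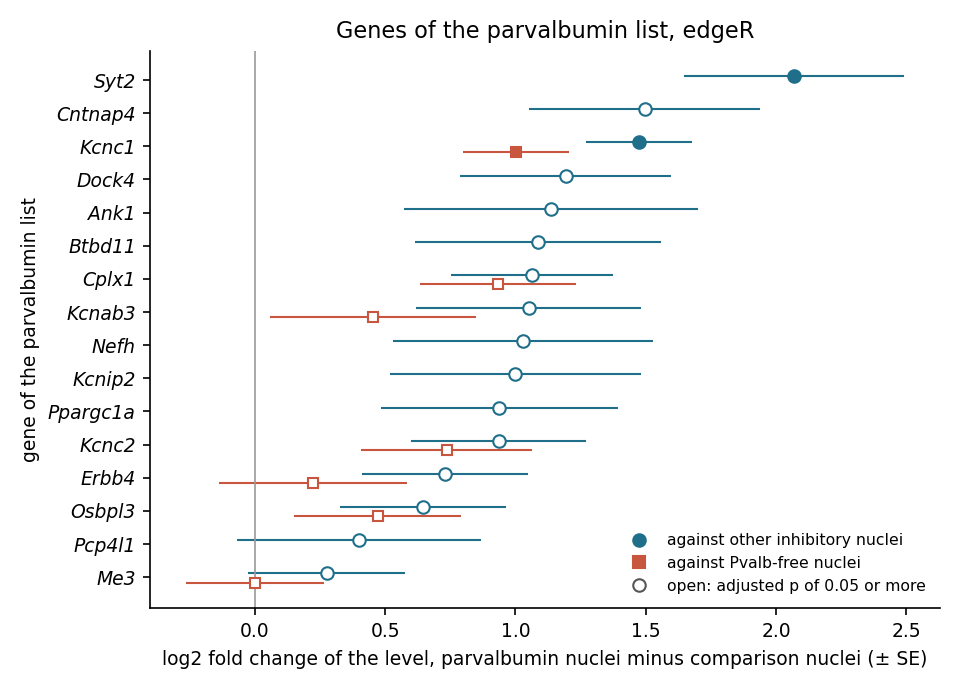
Log2 fold changes ± SE of the tested parvalbumin list genes, against the other inhibitory nuclei (circles) and against Pvalb-free nuclei (squares), filled where the adjusted p was under 0.05 in edgeR. Kcnc1 is filled in both comparisons and Syt2 in the first, and all 16 circles lie to the right of 0. Only list genes that passed the filter on low counts are shown, and that filter can pass a gene through the class where it is high. The list was chosen with earlier results of these data known.

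The Kv3 partner Kcnc2, the neuregulin receptor Erbb4, the complexin gene Cplx1 and the sodium channel gene Scn1a did not pass against Pvalb-free nuclei. Their log2 folds there were 0.74 for Kcnc2 (edgeR adjusted p = 0.47), 0.22 for Erbb4 (0.93, with the sign turning in 5 alternatives), 0.93 for Cplx1 (0.17) and 0.56 for Scn1a (0.41). Erbb4 stood at 309 CPM in all members pooled, 215 in Pvalb-free nuclei, 295 in Vip or Adarb2 nuclei and 30.5 in Sst nuclei. A p above the threshold does not show that levels were alike. Sums per unit and class were simulated with a single mean per gene, the same depth and the fitted dispersion, but no unit effects. In this simpler setting the test against Pvalb-free nuclei recovered 57% of genes changed by 1 and 100% of those changed by 2 on the log2 scale.

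Detection per nucleus was compared at equal depth. With each nucleus thinned to 1000 UMIs, Kcnc1 was seen in 70.4% of 54 members (exact 95% interval 56.4% to 82.0%), 43.4% of 316 Pvalb-free nuclei (37.8% to 49.0%), 35.1% of Sst, 37.1% of Vip or Adarb2 and 17.4% of 500 excitatory nuclei. Unthinned, these shares were 95.0%, 58.0%, 46.5%, 64.5% and 34.2%. Intervals cover counting error over nuclei only and not the spread between units. Scn1a was seen in 68.5% of thinned members and 44.6% of Pvalb-free nuclei. Dock4, an activator of small GTPases, was at 27.8% (16.5% to 41.6%) and 9.18% (6.2% to 12.9%), and Vamp1, a vesicle SNARE of fast terminals, at 24.1% and 8.23%. Kcnab1, an auxiliary subunit of Kv1 channels, was at 22.2% and 6.33%, and Hapln4, a link protein of perineuronal nets, at 16.7% and 4.75%. These genes were chosen after their values were seen, so the shares are descriptions.

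**Figure D4:**
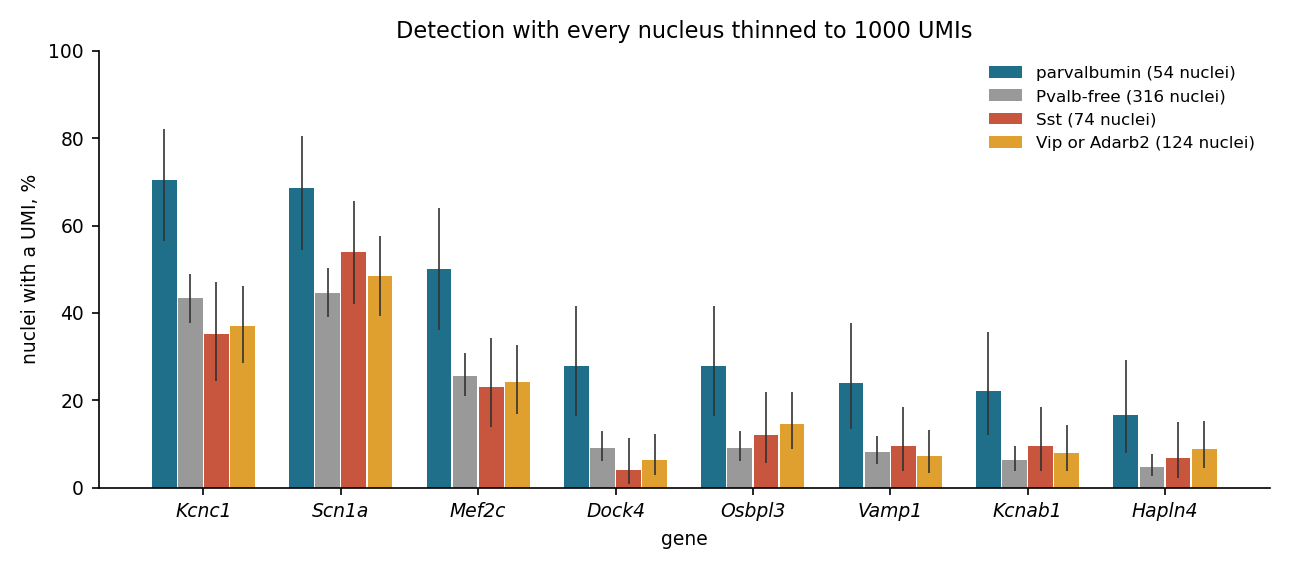
Percentage of nuclei with at least 1 UMI of each gene after every nucleus was thinned to 1000 UMIs, for 54 parvalbumin, 316 Pvalb-free, 74 Sst and 124 Vip or Adarb2 nuclei, with exact 95% intervals as error bars. The parvalbumin bars are the highest for each gene shown, Kcnc1 at 70.4% against 43.4% in Pvalb-free nuclei.

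Against 86 Sst nuclei, chosen by 2 or more Sst UMIs and no Pvalb, Vip or glutamate transporter UMI, 5 of 144 tested genes passed (3.47%, edgeR), 3 higher (2.08%) and 2 lower (1.39%) in members. Kcnc1 was 2.05 ± 0.25 higher on the log2 scale (edgeR adjusted p = 6.47e-06), with Sst nuclei at 269, 495, 302 and 157 CPM in cortex and 299 in hippocampal unit 0. Cit, the citron kinase, was 0.98 ± 0.23 higher (edgeR adjusted p = 0.012), at 947, 1249, 861, 1107 and 1101 in members against 512, 606, 362, 438 and 821 in the same units. Both were higher in members in 5 of 5 units.

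Lower than in Sst nuclei were Col19a1, a nonfibrillar collagen, and Gria1, the GluA1 subunit of AMPA receptors. Col19a1 was at 326, 432.5, 226.5, 350 and 600.3 CPM in members and 1346, 661, 483, 532 and 2389 in Sst nuclei (log2 fold change -1.44 ± 0.28, edgeR adjusted p = 0.003). Gria1 was at 385, 1057, 544, 699 and 500.3 in members and 1481, 936, 725, 1283 and 4777 in Sst nuclei (-1.30 ± 0.29, edgeR adjusted p = 0.00962), the member value being the higher one in cortical unit 1. Of these 5 calls, that on Kcnc1 held in 11 of 11 alternatives and Cit in 4 of 11. Without cortical unit 0 or without hippocampal unit 0, Kcnc1 alone passed. Cit was also lost without cortical unit 1 (edgeR adjusted p = 0.188) or 3 (0.0903).

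Against 141 Vip or Adarb2 nuclei, chosen by a UMI of either gene, at most 1 of Sst and none of Pvalb or the glutamate transporters, 21 of 335 genes passed (6.27%, edgeR), 7 higher (2.09%) and 14 lower (4.18%) in members. Kcnc1 rose by 1.50 ± 0.22 (log2; edgeR adjusted p = 1.15e-09). Kcna1, a Kv1 channel of the axon, was at 562, 673, 317 and 466 CPM in cortical members and 400.2 in hippocampal unit 0, against 209, 209, 149.6, 347 and 72.1 (log2 fold 1.30 ± 0.35, edgeR adjusted p = 0.00656). The mitochondrial phosphate carrier gene Slc25a3 rose by 1.22 ± 0.27 (edgeR adjusted p = 0.000199), the microtubule linker gene Clip1 by 0.98 ± 0.30 (0.0259), and Atp1b1, the beta subunit of the sodium pump, by 0.65 ± 0.16 (0.00103). Each of these was higher in 5 of 5 units, and the count of calls was 9 without cortical unit 0 and 6 with DESeq2. Slc25a3 and Atp1b1 were lost without cortical unit 0 (edgeR adjusted p = 0.0641 and 0.0593), and Clip1 without cortical unit 2 (0.338) or 3 (0.074). With no filter on low counts Kcna1 (edgeR adjusted p = 0.372), Slc25a3 (0.235), Clip1 (0.973) and Atp1b1 (0.989) missed the threshold. With DESeq2 Kcna1 (adjusted p = 0.0962), Clip1 (0.287) and Atp1b1 (0.0587) did.

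Cnr1, the cannabinoid receptor of cholecystokinin basket cells, was the main lower gene beside Npy. It was at 178, 48.1, 362 and 58.3 CPM in cortical members and 0 in all 4 hippocampal units, against 996, 926, 785 and 561 in Vip or Adarb2 nuclei of cortex and 180 in hippocampal unit 0. The log2 fold change was -2.31 ± 0.34 (edgeR adjusted p = 1.44e-09), and it held in 7 of 7 alternatives in which the gene was tested. Npy changed by -3.31 ± 0.34 (edgeR adjusted p = 1.12e-18). Dlx6os1, a noncoding RNA antisense to Dlx6, changed by -1.76 ± 0.37 (edgeR adjusted p = 9.7e-05). Use of strand in counting is not stated, so its reads may include those of Dlx6. The noncoding RNA Miat changed by -1.35 ± 0.27, lower in 5 of 5 units.

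The counts of the other lists stand beside the 0.297% of all 4381 genes called higher and the 0.776% called lower. Of 27 potassium channel genes tested against other inhibitory nuclei 1 was higher (Kcnc1) and none lower, with a median log2 fold of 0.020 beside -0.126 over all genes. Of 15 GABA synapse genes 1 was higher. Of 21 sodium, calcium and HCN channel genes 2 were lower (Cacna1e and Cacna2d1, median -0.59), and of 30 genes of vesicle release 1 was higher (Syt2) and 1 lower (Cplx2, -1.57 ± 0.39). The Cplx2 call was lost without cortical unit 0 (edgeR adjusted p = 0.0608) or 1 (0.138). None of 19 glutamate receptor genes (median -0.46), 22 respiratory chain genes (median 0.062, 13 positive) or 5 perineuronal net genes passed in edgeR. None of 8 immediate early genes passed either, all 8 with negative values (median -0.75). Over all 4381 genes 412 had an unadjusted p under 0.05, and the DESeq2 count was 13. Against Pvalb-free nuclei the list calls included Kcnc1 among 11 potassium channel genes (median 0.43, 8 positive) and Npy in the Sst class list.

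Members of hippocampus and cortex were compared last. No unit of hippocampus but number 0 reached 5 nuclei, so units of 3 or more nuclei were used, a choice made after the numbers of nuclei were known. None of 69 genes passed in edgeR (0.0%) or DESeq2, with 4 at an unadjusted edgeR p under 0.05 (Gria1, Atp2b1 and Malat1 among them). On simulated counts of these 69 genes the fit recovered 58.8% of 17 genes changed by 1 and 100% of 17 changed by 2 on the log2 scale. Kcnc1 differed by 0.16 ± 0.32 (edgeR adjusted p = 0.91), and its pooled level was 1413 CPM in hippocampal and 1222 in cortical members.

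Pooled counts carry an exact 95% interval that covers counting error only, not the spread between units. Ratios were taken only for genes of the lists, named genes and gate genes, of which 154 had 20 or more UMIs in members. The hippocampal over cortical ratio had an interval above 1 for 13 of them and below 1 for 18. These counts are not shares over all genes. Gria1 was at 1325 CPM in hippocampal and 564 in cortical members, a ratio of 2.35 (1.58 to 3.46), beside 804 and 580 in Pvalb-free nuclei. By unit, hippocampal members stood at 500.3, 2084, 1160.4 and 1758 and cortical ones at 385, 1057, 544 and 699, so the groups overlapped, hippocampal unit 0 lying below 3 cortical units. Maf, a transcription factor of the medial lineage, had a ratio of 4.01 (1.86 to 8.70), with 300.2, 651, 129 and 820.4 in hippocampal units and 148, 48.1, 90.6 and 117 in cortical ones. Hippocampal unit 2, at 129, was the only one of the 4 inside the cortical range, and in Pvalb-free nuclei the levels were 117 in hippocampus and 158 in cortex.

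The calcium channel genes Cacna2d2 (2.30, 1.23 to 4.21) and Cacnb4 (2.38, 1.27 to 4.37), the adhesion gene Cntnap4 (2.37, 1.05 to 5.15) and the NMDA receptor gene Grin1 (1.96, 1.13 to 3.32) were also above 1 in pooled ratio. On the cortical side was the calcium pump gene Atp2b1, at 0.53 (0.33 to 0.82). Pvalb-free nuclei also held less Atp2b1 in hippocampus, 836 against 1492 CPM. Cnr1 had 0 UMIs in hippocampal members, which allows up to 3, and 22 in cortical ones, of which 13 lay in the 8 members with glial or vascular RNA and 9 in the others, while Pvalb-free nuclei of hippocampus held 83. Npy had a ratio of 6.94 (3.39 to 14.8), which rests on the 1 nucleus of unit 3 named above.

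**Figure D5:**
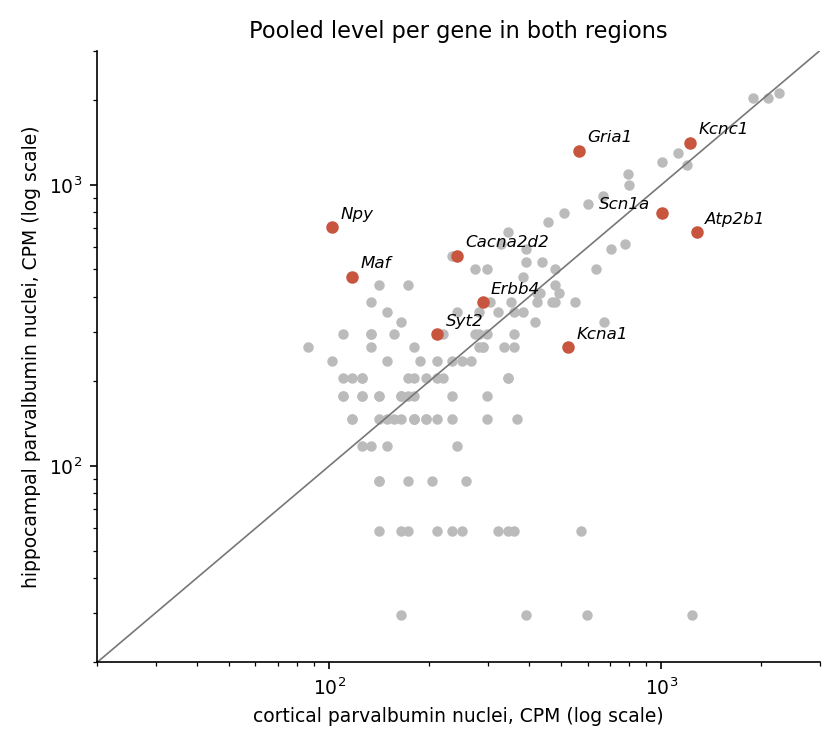
Pooled level of 143 listed or named genes in hippocampal (vertical) against cortical (horizontal) parvalbumin nuclei, in CPM on log axes. The line marks equal levels. Gria1 and Maf lie above the line, Atp2b1 below it, and Kcnc1 close to it.

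Whether a regional difference was larger in members than in transporter-free other inhibitory nuclei was tested as an interaction over 8 units. It passed for 12 of 2930 genes (0.41%, edgeR), 11 with a lower hippocampal value in members (0.375%), led by Ly6c1 and Rgs5, and 1 with a higher one (0.0341%), Npy. With nuclei of 10 or more glial or vascular marker UMIs removed none of 1662 passed in edgeR, which still tested 4 of the 12, and DESeq2 called none with them kept, while 256 had an unadjusted edgeR p under 0.05 in the full set. Without hippocampal unit 3 the edgeR count was 1, and without cortical unit 0 it was 5.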

How the data were processed

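The authors deposited 1 table of raw UMI counts per gene and nucleus, with 23589 genes and 13313 columns. STAR 2.4.0a24, Seurat and mm10 are named per the submitters' processing notes, and UMI collapsing and nucleus selection are not given in the sources used here. Another 1689 columns match no sample label and were not used. Depth and the number of nuclei per unit, given above, set the precision.

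Members, gene lists and comparisons were chosen with earlier results of these data known. Sums of UMI counts, 1 per unit and class, went into edgeR 4.0.16 in R 4.3.3 (quasi-likelihood test after TMM scaling and filterByExpr, with p-values adjusted over all genes tested by Benjamini-Hochberg), with the unit as a block between classes. DESeq2 1.42.0 was an alternative. Each unit needed 5 nuclei per class. The comparisons with Pvalb-free, Sst and Vip or Adarb2 nuclei, the minimum of 3 nuclei and the removal of glial or vascular marker nuclei were added after the data were seen. Levels (CPM) are relative to all UMIs of the summed nuclei. Genes were named by rule if they had an adjusted p under 0.05, a mean of at least 50 CPM and one sign in every unit (largest folds first), or if they led a list. Other genes given here, Tm6sf1, Gria1, Erbb4 and Maf among them, did not come from this rule and were picked with the results known. Doublets were scored against simulated pairs, the top 6% per library counting as calls (4 members), and were removed only in an alternative. Fits were tested on simulated sums per unit and class, drawn without unit effects. Gene positions are from GENCODE. Some genes are not reported here.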

Additional observations from a re-analysis of the deposited data

Results flagged for a closer look

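Of 42 groups of 4 units examined, 4 had 1 unit far from the rest, where chance gives about 1 in 20. The median depth of members was 2516.5 UMIs in cortical unit 0, against 1261 to 1455 in the other cortical units. Col11a1 was lowest in cortical unit 3, at 117 CPM. Npy was highest in hippocampal unit 3, at 2696 CPM, of which 1 nucleus gave nearly all. Slc1a2, an astrocyte glutamate transporter, was highest in cortical unit 0, at 696 CPM, and 47 of its 51 member UMIs lay in the 8 members with glial or vascular RNA.

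In 12 genes the regional difference in members departed from that in transporter-free other inhibitory nuclei by the interaction test (edgeR), and 11 are given here (adjusted p from 2.29e-05 to 0.0262). Their log2 differences, hippocampus minus cortex and members minus others, were -9.04 for Ly6c1, -4.87 for Rgs5, -4.10 for Flt1, -7.90 for Slc2a1, -7.92 for Ly6a and -7.90 for Pltp, genes of endothelial cells and pericytes or high in vessels. They were -2.69 for Bsg, -3.13 for Tmsb4x, -4.12 for the haemoglobin gene Hbb-bs, -0.55 for the noncoding RNA Meg3 and 2.77 for Npy. Ly6c1, Slc2a1, Ly6a and Pltp had 0 UMIs in hippocampal members, so their fitted values are no bound. The 8 cortical members with glial or vascular RNA held 157 of 159 Rgs5, 72 of 78 Ly6c1, 75 of 77 Flt1 and 1103 of 7033 Meg3 UMIs. The other 52 members held 114621 of all 161575 member UMIs, so the share of Meg3 in the 8 was below their share of all UMIs. With such nuclei removed, 4 of the 12 genes were still tested, and none of the 4 passed: Npy stood at 2.67 (edgeR adjusted p = 0.286), Meg3 at -0.48 (0.464), Bsg at -0.96 (0.944) and Tmsb4x at -1.71 (0.845).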

How the results depend on the processing

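Counts of genes passing moved as follows. Against other inhibitory nuclei (47) DESeq2 gave 13, a minimum of 10 nuclei 29, numbers 1 to 3 only 17, removal of glial or vascular marker nuclei 27, and leaving out 1 unit 19 to 41. Against transporter-free nuclei (6) no filter gave 40, that removal 12, a minimum of 10 nuclei 2, of 3 nuclei 17, numbers 1 to 3 only 2, and leaving out 1 unit 2 to 7. Of the 6 main calls, 6 were kept with a minimum of 3 nuclei and 4 with no filter. With numbers 1 to 3 only, 5 of the 6 were tested and 0 were kept. Against Pvalb-free nuclei (3) DESeq2 gave 1, no filter 31, doublet calls removed 1, numbers 1 to 3 only 8, a minimum of 3 nuclei 8, and leaving out 1 unit 1 to 6. Of the 3 main calls, 2 were kept with no filter, 2 with a minimum of 3 nuclei and 1 with numbers 1 to 3 only. Against Sst nuclei (5) no filter gave 12, the glial and vascular removal 8, numbers 1 to 3 only 2, and leaving out 1 unit 1 to 6. Against Vip or Adarb2 nuclei (21) DESeq2 gave 6, no filter 43, numbers 1 to 3 only 8, a minimum of 3 nuclei 12, and leaving out 1 unit 9 to 19. Of the 21 main calls, 13 were kept with no filter. Between regions (0) no filter gave 36 and numbers 1 to 3 only 1, and leaving out 1 unit 0. For the interaction (12) DESeq2 gave 0, the glial and vascular removal 0, doublet calls removed 1, and leaving out 1 unit 1 to 19. Erbb4 against Pvalb-free nuclei (0.22 on the log2 scale, no call) was -0.17 with no filter, -0.19 with the glial and vascular removal, -0.70 with numbers 1 to 3 only, and -0.058 to 0.40 leaving out 1 unit. The cause of these moves was not tested. Without the replicate block between classes the counts were 21 against other inhibitory and 2 against transporter-free nuclei.

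The share of inhibitory nuclei (-4.39 points) was -4.21 with doublet calls removed (two-sided exact permutation p = 0.0571), 0.21 with 2 or more Pvalb UMIs (p = 0.857), -4.46 thinned (p = 0.0857), -4.21 with glial and vascular marker nuclei removed (p = 0.0857), -4.22 with numbers 1 to 3 only (p = 0.1, the smallest possible) and -4.98 to -3.80 leaving out 1 unit. The share of all nuclei (-0.522) was -0.0524 with 2 or more Pvalb UMIs (exact p = 0.686), -0.377 with numbers 1 to 3 only (exact p = 0.1) and -0.594 to -0.393 leaving out 1 unit. With the number as a replicate block both shares were the same, -4.39 and -0.522 points, at an exact sign permutation p of 0.125, the smallest that 4 pairs allow, and the regional gene count was 0. Deviations of same-numbered units of both regions had correlations of 0.189, -0.123, 0.144 and 0.0622 over 134 genes. The hippocampal sums held few nuclei, so counting noise limits these values. They cannot tell whether same-numbered units are paired. A gene test with 2 or more Pvalb UMIs, and a minimum of 10 nuclei between regions, could not be fitted.

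The 14 hippocampal and 46 cortical members, with 3 to 16 nuclei per unit, limit all of this. Against other inhibitory nuclei a test on simulated counts recovered 22% of the changes of log2 1 and 82% of those of log2 2. A single Pvalb UMI decides membership for 42 of 60 nuclei.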

Other observations

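Kcnc1 was detected in all but 3 members, of 1137, 1390 and 1101 UMIs in all, and each of these had Kcnc2 or Syt2. The member with the most Kcnc1, 12 UMIs, had 4813 UMIs in all, and the spread of Kcnc1 at matched depth was not tested. Kcnc1 and Kcnc2 occurred together in 27 members. Mef2c, a transcription factor active in parvalbumin cell development, was present in 42 members and, at 1000 UMIs, in 27 of 54 members against 25.6% of Pvalb-free nuclei. Osbpl3, a lipid-binding protein gene of the PV interneuron list, was at 27.8% and 9.18% on the same measure. Striatal medium spiny neuron markers summed to 427 CPM in members and 465 in Pvalb-free nuclei, and Microglia markers to 55.7 and 141.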
